A study of Tupaia belangeri chinensis with 36 samples.

Results

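The miRNAs described here are those named for leukocyte function in mouse and human: miR-142a, miR-146a, miR-146b, miR-150, miR-155 and miR-223. They were taken from the deposited miRNA table by name, as every entry whose mouse name starts with one of these 6 (the set of names was picked with earlier results of these data known). This gave 10 of the 1210 entries of the table: both arms of miR-142a, miR-146a, miR-146b and miR-223, and the 5p arm alone of miR-150 and miR-155. Of the 1210 entries, 491 carry a mouse name and 719 carry a mark of the submitters for a new entry.

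The series sampled 3 tissues of the male tree shrew Tupaia belangeri chinensis, a small mammal related to primates: testis, caput epididymis, where sperm enter from the testis, and cauda epididymis, where they are stored. Sexually mature males of 1.5 to 2 years were sampled in mid-December 2023, outside the breeding period (non-reproductive, NR), and in mid-April 2024, within it (reproductive, R), and the labels name no strain, genotype, allele or treatment. Small RNA was read as single reads of 50 nt from 18 libraries, with 3 biological replicates in every combination of tissue and season (CAUDA-NR, CAUDA-R, CAPUT-NR, CAPUT-R, TESTIS-NR and TESTIS-R). Whether the 3 tissues of a replicate number came from 1 animal is not given in the sources used here. Each season was collected at 1 time, so season and collection date cannot be told apart.

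Mature miRNAs are short RNAs that guide Argonaute proteins to messenger RNAs with matching sites and lower their output, mostly through the seed near the 5′ end. A hairpin precursor can give a mature strand from either arm, named 5p and 3p, and usually one arm dominates. miR-142 is made almost only in blood-forming lineages and is abundant in most leukocytes, miR-223 is typical of granulocytes and monocytes, and miR-150 of mature lymphocytes. miR-155 and miR-146a are induced when lymphocytes and macrophages are activated, and miR-146a and miR-146b, which come from separate genes and share a seed, dampen signalling from Toll-like receptors; miR-146b is also made by several epithelia. The epididymis holds a dense network of resident macrophages and dendritic cells in and below its epithelium, and the testis keeps its leukocytes mostly in the interstitium. In bulk tissue, fewer cells of a type and less of the RNA per cell cannot be told apart.

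Of the 18 columns, TESTIS-NR 2 and CAPUT-NR 2 equalled the mean of the other libraries of their group at 100% of entries (within 0.5 counts), against at most 45.1% in any other column, so they were left out and n was 2 in these groups. The other 16 libraries held 2166152 to 14756858 miRNA counts, and levels are given as CPM, counts scaled to a common total per library. The tissue labels could be set against marker miRNAs. The epithelial list (the miR-200 family with miR-141 and miR-429, 10 entries) summed to 62715 to 121066 CPM in the epididymis and to 211 to 3559 CPM in the testis. The germ cell and ciliated cell list (miR-34b, miR-34c and miR-449, 6 entries) summed to 4704 to 7994 CPM in 4 testis libraries but to 341 CPM in TESTIS-NR 1, inside the epididymal range of 324 to 1254 CPM. TESTIS-NR 1 therefore differed from the other 4 testis libraries on germ cell miRNAs. It also had the highest epithelial sum of the testis, 3559 CPM beside at most 2237 CPM. With n = 2 in TESTIS-NR, neither library can be named the exception of that group. The called testis differences are also given without TESTIS-NR 1.

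Summed over the 10 entries, the leukocyte miRNAs were most abundant in the cauda and least in the testis. The sum was 3895 to 8928 CPM in CAUDA-NR, 2099 to 5381 CPM in CAUDA-R, 2986 and 3145 CPM in CAPUT-NR, 1138 to 2955 CPM in CAPUT-R, 551 and 1535 CPM in TESTIS-NR and 758 to 1646 CPM in TESTIS-R. All 6 cauda libraries lay above all 5 testis libraries, while the caput overlapped both. One strand carried most of this sum: miR-142a-3p was 60.7% to 90.7% of it. miR-155-5p, at 3.81% to 23.3%, was second in 11 of 16 libraries, miR-142a-5p in 3 cauda libraries and miR-146b-5p in 2 testis libraries. By mean level miR-142a-3p ranked 45 among the 1210 entries, miR-155-5p 121 and miR-142a-5p 140, and the other members ranked 217 or lower.

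**Figure D1:**
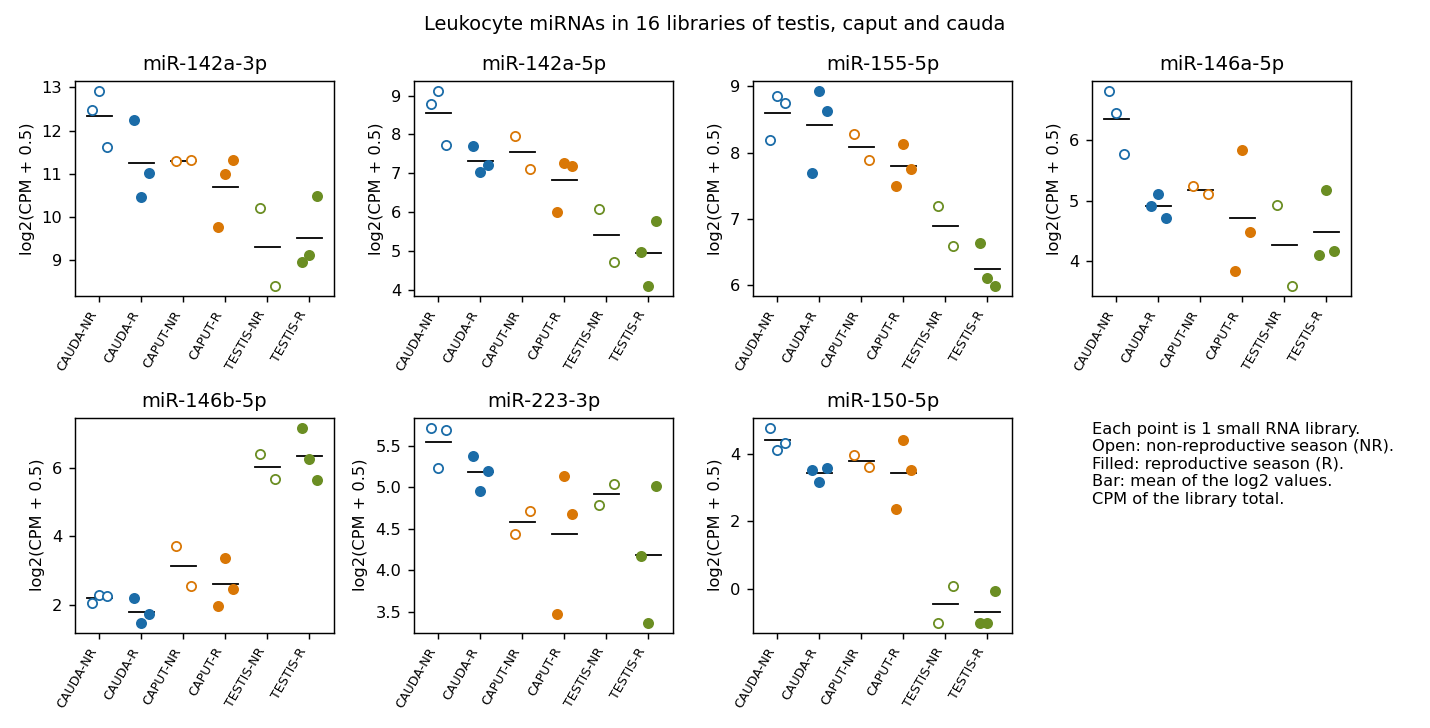
Levels of the 7 abundant leukocyte miRNAs in 16 small RNA libraries, as log2(CPM + 0.5) on the vertical axis, by group of tissue and season; each point is 1 library, open for NR and filled for R, and bars are means of the log2 values. miR-142a, miR-155-5p and miR-150-5p sit lowest in the testis and miR-146b-5p highest there (49.4 to 144.5 CPM against 2.27 to 12.5 CPM in the epididymis).

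miR-142a-3p, the dominant strand of the pan-leukocyte miR-142 hairpin, stood in the cauda at 5743, 7759 and 3122 CPM in NR 1 to 3 and at 4878, 1404 and 2076 CPM in R 1 to 3. In the caput it stood at 2499 and 2534 CPM in NR 1 and 3, and at 862, 2029.7 and 2529 CPM in R 1 to 3. In the testis it stood at 1179.6 and 335 CPM in NR 1 and 3, and at 493, 550.4 and 1427 CPM in R 1 to 3. The cauda was high and the testis low, with the highest testis library just above the lowest cauda library. The means were 4164 ± 2408 CPM in the cauda (SD, n = 6), 2091 ± 719 in the caput (n = 5) and 797 ± 477 in the testis (n = 5). Neighbours in this order did not all differ beyond their spread: cauda and caput overlapped and the test between them was not passed. Testis and caput also overlapped, as TESTIS-R 3 and TESTIS-NR 1 lay above CAPUT-R 1, but they differed by the test given below.

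The passenger strand miR-142a-5p followed the same order at a lower level. It stood at 444, 557 and 211.7 CPM in CAUDA-NR 1 to 3 and at 209, 131 and 147.3 CPM in CAUDA-R 1 to 3. In the caput the values were 248 and 138 CPM in NR 1 and 3, and 63.7, 152 and 146.8 CPM in R 1 to 3. In the testis they were 67.7 and 25.9 CPM in NR 1 and 3, and 31.3, 16.7 and 54.5 CPM in R 1 to 3. All cauda libraries lay above all testis libraries, while the caput overlapped both. Within a library the 3p strand had 10.1 to 33.0 times the counts of the 5p strand, a ratio that no scaling affects, and its ranges overlapped between all 3 tissues (10.8 to 23.3 in the cauda, 10.1 to 18.3 in the caput and 12.9 to 33.0 in the testis).

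miR-155-5p, the miRNA of activated lymphocytes and macrophages, varied less between replicates. It stood at 293, 462 and 430.1 CPM in CAUDA-NR 1 to 3 and at 206.4, 488 and 395 CPM in CAUDA-R 1 to 3. In the caput it stood at 311 and 236 CPM in NR 1 and 3, and at 180.0, 279 and 215 CPM in R 1 to 3. In the testis it stood at 146.1 and 96.1 CPM in NR 1 and 3, and at 99.4, 68.3 and 62.8 CPM in R 1 to 3. Every testis library was below every epididymal library. miR-142a-3p had 2.88 to 23.6 times the counts of miR-155-5p, with ranges that overlapped between all 3 tissues.

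The table also held an entry marked as new under the name miR-155-5p, which the rule does not take. In 15 of the 16 libraries it had 1.04 to 1.13 times the counts of the member, and in TESTIS-R 1 it had 6 counts against 273, or 0.0220 times. Whether the same reads were counted for both entries was not tested.

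miR-146a-5p, the inducible brake on innate signalling, was highest in the cauda of the non-reproductive season. It stood at 112, 87.2 and 54.4 CPM in CAUDA-NR 1 to 3 and at 29.5, 33.99 and 25.7 CPM in CAUDA-R 1 to 3. In the caput it stood at 37.4 and 33.98 CPM in NR 1 and 3, and at 13.9, 56.6 and 21.8 CPM in R 1 to 3. In the testis it stood at 30.1 and 11.6 CPM in NR 1 and 3, and at 16.7, 35.6 and 17.5 CPM in R 1 to 3. The 3 CAUDA-NR libraries lay above every CAUDA-R library, while the caput and testis ranges overlapped. The means were 57.1 ± 35.2 CPM in the cauda (n = 6), 32.7 ± 16.3 in the caput (n = 5) and 22.3 ± 10.1 in the testis (n = 5), and no neighbours in this order differed by the test.

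miR-146b-5p, which shares its seed with miR-146a-5p, had the opposite order. It stood at 84.1 and 50.2 CPM in TESTIS-NR 1 and 3, and at 144.5, 75.4 and 49.4 CPM in TESTIS-R 1 to 3. In the caput it stood at 12.5 and 5.31 CPM in NR 1 and 3, and at 3.39, 9.70 and 5.01 CPM in R 1 to 3. In the cauda it stood at 3.68, 4.38 and 4.24 CPM in NR 1 to 3 and at 4.07, 2.27 and 2.78 CPM in R 1 to 3. The testis range lay wholly above the epididymal ranges. The means were 80.7 ± 38.8 CPM in the testis (n = 5), 7.18 ± 3.79 in the caput (n = 5) and 3.57 ± 0.858 in the cauda (n = 6). It made up 3.001% to 17.96% of the summed leukocyte miRNAs in the testis and at most 0.398% in any epididymal library.

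Set against each other within a library, the miR-146 pair separated the testis from the epididymis, while the caput and cauda ranges nearly met. The ratio of miR-146b-5p to miR-146a-5p counts was 2.79 and 4.34 in TESTIS-NR 1 and 3, and 8.63, 2.12 and 2.82 in TESTIS-R 1 to 3. It was 0.156 to 0.335 in the 5 caput libraries and 0.0328 to 0.138 in the 6 cauda libraries. The lowest caput library (CAPUT-NR 3) had 40 over 256 counts and the highest cauda library (CAUDA-R 1) 39 over 283. Whether these differ beyond counting error was not tested. miR-146b was thus the more abundant of the pair in all 5 testis libraries and the less abundant in all 11 epididymal libraries. TESTIS-NR 1, which was low in germ cell miRNAs, had a ratio of 2.79, inside the range of the other testis libraries.

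**Figure D2:**
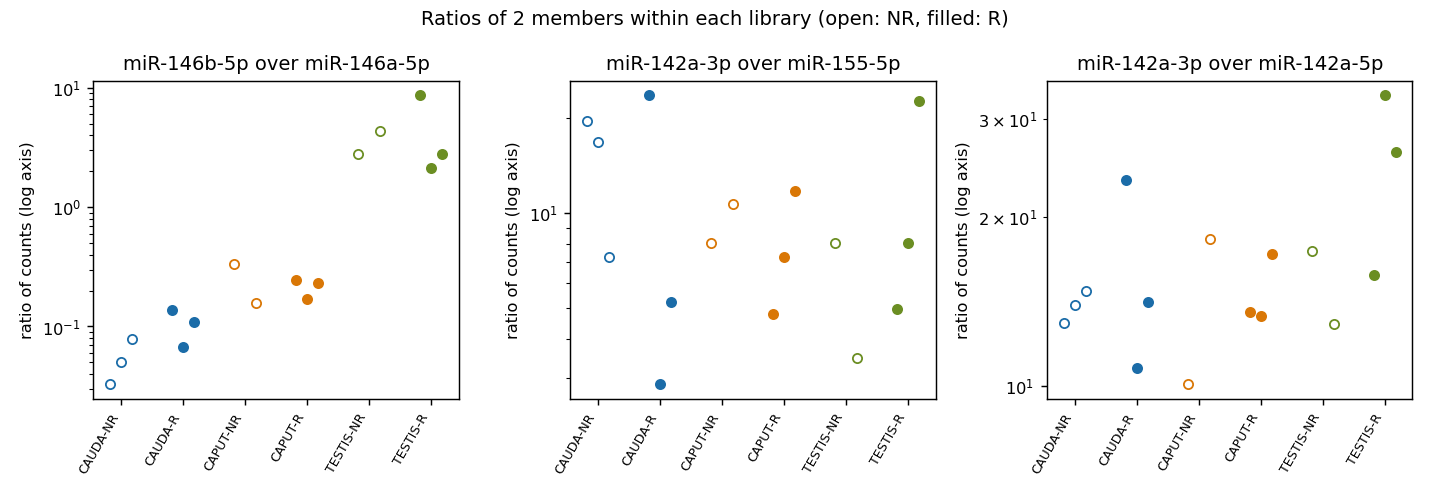
Ratios of counts of a pair of leukocyte miRNAs within each library, on log axes, by group of tissue and season; each point is 1 library, open for NR and filled for R. The ratio of miR-146b-5p to miR-146a-5p is 2.12 to 8.63 in the testis, 0.156 to 0.335 in the caput and 0.0328 to 0.138 in the cauda, while the ratios of miR-142a-3p to miR-155-5p and to miR-142a-5p overlap between tissues.

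miR-223-3p, the granulocyte and monocyte miRNA, differed least between tissues. It stood at 52.2, 37.0 and 51.3 CPM in CAUDA-NR 1 to 3 and at 41.1, 30.6 and 36.3 CPM in CAUDA-R 1 to 3. In the caput it stood at 21.2 and 25.7 CPM in NR 1 and 3, and at 10.6, 34.8 and 25.1 CPM in R 1 to 3. In the testis it stood at 27.1 and 32.4 CPM in NR 1 and 3, and at 17.5, 9.79 and 31.9 CPM in R 1 to 3. The ranges of all 3 tissues overlapped, and the mean CPM of the testis (23.7 ± 9.82, n = 5) lay next to that of the caput (23.5 ± 8.77, n = 5). Relative to it, miR-142a-3p had 10.3 to 56.2 times the counts in the testis, 58.3 to 118 times in the caput and 45.9 to 209.7 times in the cauda. The caput and testis ranges thus nearly met. The lowest caput ratio (CAPUT-R 2) rests on 287 counts of miR-223-3p and the highest testis ratio (TESTIS-R 2) on 47. Whether these differ beyond counting error was not tested.

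miR-150-5p, the miRNA of mature lymphocytes, was nearly at 0 in the testis. It had 0 and 2 counts in TESTIS-NR 1 and 3 and 0, 0 and 1 counts in TESTIS-R 1 to 3, together 3 of 17176113 counts; a count of 0 allows a level of up to 0.625 to 1.09 CPM in the 3 libraries without a count. In the caput it stood at 15.2 and 11.5 CPM in NR 1 and 3, and at 4.61, 20.5 and 10.96 CPM in R 1 to 3. In the cauda it stood at 26.8, 16.7 and 19.4 CPM in NR 1 to 3 and at 10.8, 8.50 and 11.4 CPM in R 1 to 3. Every epididymal library was above every testis library. Over the pooled counts the caput had 66.7 times the testis level (exact 95% interval 22.7 to 324) and the cauda 87.3 times (29.8 to 424), intervals that cover counting error only.

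An entry marked as new under the name miR-150-5p changed the size of this difference. In 10 of the 11 epididymal libraries it had 8.43 to 14.9 times the counts of the member, and in CAUDA-NR 3 it had 4 counts against 128. In the testis it stood at 1.28 to 13.2 CPM, where the member had 0 to 0.564 CPM. With the counts of both entries added, miR-150-5p stayed lower in the testis than in the caput (log2 difference -4.72, adjusted p = 0.000749) and the cauda (-4.41, adjusted p = 0.00158), by edgeR's quasi-likelihood test with Benjamini-Hochberg adjustment. The near absence of miR-150-5p from the testis thus held for the mouse-named entry and not for the pair.

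The remaining 3 members were too low for most tests. miR-146a-3p had 53 counts in all 16 libraries and 0 in 6 of them, 4 of which were testis libraries. miR-223-5p had 90 counts in the cauda, 31 in the caput and 12 in the testis, and was at 0 in 2 libraries. miR-146b-3p had 9 counts in all, 7 of them in the testis and 0 in the cauda; the testis to caput ratio was 10.9, with a counting interval of 2.07 to 107.

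The first comparison asked how the leukocyte miRNAs differed between testis and epididymis. In the fit of testis against cauda, with season as a covariate, 8 members passed the filter on low counts and 6 were called at an adjusted p under 0.05, 1 higher and 5 lower in the testis, where 36% of all 713 entries tested were called (18% higher and 18.1% lower). Against the caput 5 of 7 were called, 1 higher and 4 lower, where 34.7% of 677 were called (16.5% higher and 18.2% lower). The median log2 difference of the members was -1.995 against the cauda and -1.92 against the caput, beside 0.47 and 0.40 over all entries tested. In 1 member every testis library was above every cauda library and in 3 every one was below, which held for 11.9% and 15.7% of entries; against the caput the numbers were 1 and 2 members, and 16% and 11.5% of entries. Both comparisons use the same testis libraries, so their values are given side by side and not as support for each other. Changes come from the fit, which scales libraries by TMM (trimmed mean of M-values), and can differ from ratios of CPM.

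miR-142a-3p was lower in the testis than in the cauda by a log2 difference of -2.41 (SE 0.56, adjusted p = 0.00759) and 5.22-fold in mean CPM. Against the caput the log2 difference was -1.92 (SE 0.48, adjusted p = 0.0126), 2.62-fold in mean CPM. Its partner strand miR-142a-5p differed by -2.82 (SE 0.48, adjusted p = 0.00117) and -2.46 (SE 0.47, adjusted p = 0.00357). Both strands of the hairpin were therefore lower in the testis in both comparisons. Without TESTIS-NR 1 the 3p strand differed by -2.83 and -2.30, with adjusted p of 0.0103 and 0.0127, and the 5p strand by -3.22 and -2.81, with adjusted p of 0.00208 and 0.00414. That refit left TESTIS-NR 3 as the only library of its group.

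miR-155-5p was lower in the testis by -2.22 against the cauda (SE 0.36, adjusted p = 0.000863) and by -1.98 against the caput (SE 0.30, adjusted p = 0.00102), or 4.01-fold and 2.58-fold in mean CPM. These groups did not overlap in either comparison, and without TESTIS-NR 1 the differences were -2.65 and -2.25 (adjusted p = 0.000618 and 0.000468). For miR-150-5p the adjusted p was 0.000554 against the cauda and 0.00180 against the caput, and its fitted change is not given as a size because 3 testis libraries had no count: against the caput it moved from -6.51 to -7.20 without TESTIS-NR 3 and to -7.15 without TESTIS-R 3, and against the cauda from -6.37 to -7.26 and -7.03, with the call kept. Without TESTIS-NR 1 its adjusted p was 0.00379 against the caput and 0.000691 against the cauda. miR-155 is tied to activated lymphocytes and macrophages and miR-150 to mature lymphocytes, and which cells lie behind these differences was not tested.

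miR-146b-5p was the only member called higher in the testis, by 4.29 against the cauda (SE 0.38, adjusted p = 4.55e-05) and by 2.97 against the caput (SE 0.50, adjusted p = 0.00194). In mean CPM it was 22.6-fold and 11.2-fold higher. Without TESTIS-NR 1 the differences were 4.07 and 2.83, and without CAPUT-NR 1 the difference from the caput was 3.58. By contrast miR-146a-5p missed the threshold, with log2 differences of -1.23 (SE 0.49, adjusted p = 0.0710) and -1.05 (SE 0.46, adjusted p = 0.0974).

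miR-223-3p passed the test against the cauda only narrowly, at -0.99 (SE 0.32, adjusted p = 0.0374), and lost the call in 11 of 20 alternatives, with adjusted p of 0.00676 to 0.110 over all of them. Without TESTIS-NR 1 the difference was -1.23 (adjusted p = 0.0271). The call was lost with each CAUDA library but NR 2 left out (0.0524 to 0.0732) and with scaling by library totals (0.0802). Against the caput its difference was -0.57 (SE 0.43, adjusted p = 0.315). The testis also differed from the epididymis in lists of other cell types: 10 of 10 epithelial entries were called lower in both comparisons, and against the cauda both tested endothelial miR-126 entries, 4 of 4 smooth muscle entries (miR-143 and miR-145) and 5 of 5 skeletal muscle entries were called lower. The smooth muscle sum was 5298 to 12205 CPM in the testis, 5214 to 11101 CPM in the caput and 23147 to 40039 CPM in the cauda. Their part in the leukocyte differences was not tested.

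**Figure D3:**
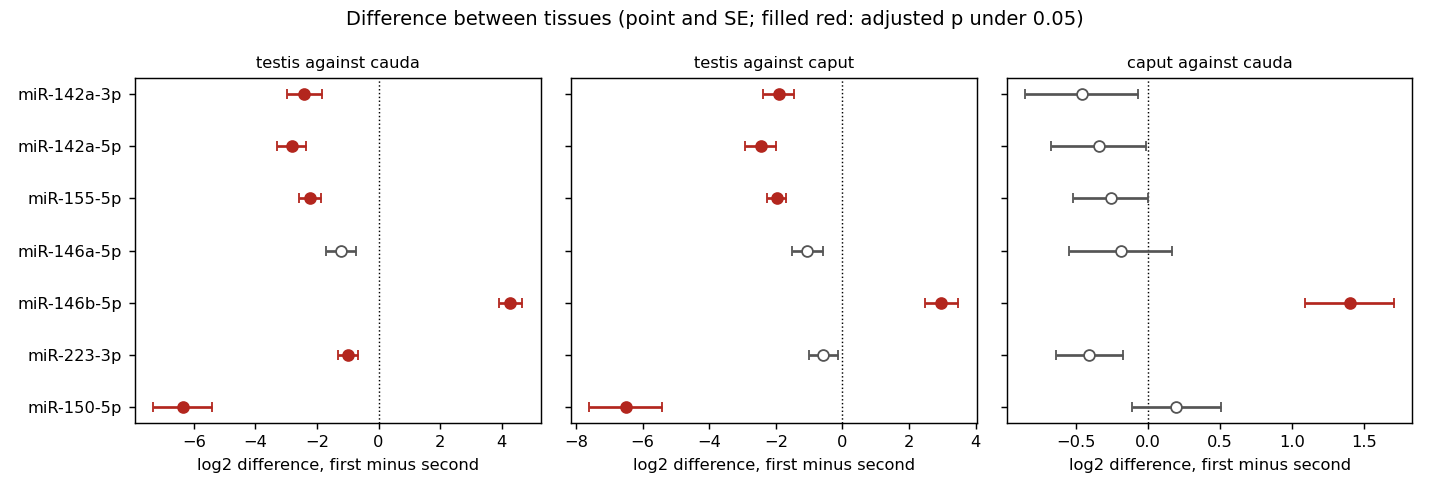
Fitted log2 differences between tissues (horizontal axis, first tissue minus second; a separate range in each panel) for the 7 abundant leukocyte miRNAs; points are estimates over both seasons, bars are 1 SE, and filled red points have an adjusted p under 0.05. miR-146b-5p is higher in the testis (4.29 against the cauda, 2.97 against the caput). It is also higher in the caput against the cauda (1.40), a call lost with the replicate block. The other called members are lower in the testis, and the estimates for miR-150-5p against the testis rest on 3 testis counts in all.

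The comparison of caput with cauda asked whether the members differ along the epididymis. Of 8 members tested, 1 was called, miR-146b-5p, where 21.3% of 620 entries were called, so the share of members was below that of the table; called higher were 1 of 8 members and 12.7% of entries, and 6 of 8 changes were below 0, beside 48.7% of entries. miR-146b-5p was higher in the caput by 1.40 (SE 0.31, adjusted p = 0.00926) and 2.01-fold in mean CPM, with ranges that overlapped. This fit took the libraries as unpaired, and whether caput and cauda were paired is not known. With the replicate number as a block, the difference was 1.39 with an adjusted p of 0.0884 by edgeR. No member was then called, where 76 of 620 entries were, so the call of miR-146b-5p was lost. It was also lost with library-total scaling (1.04, adjusted p = 0.0734), in the reproductive season alone (1.24, adjusted p = 0.110) and without CAPUT-NR 1 (1.14, adjusted p = 0.0578).

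The other members gave no call between these segments, although mean levels were lower in the caput for miR-142a-3p (1.99-fold), miR-142a-5p (1.89-fold), miR-155-5p (1.55-fold) and miR-223-3p (1.76-fold). Their fitted differences were smaller, -0.46 (SE 0.39), -0.34 (SE 0.33), -0.26 (SE 0.26) and -0.41 (SE 0.23), with adjusted p of 0.472, 0.528, 0.543 and 0.259 by edgeR. TMM and library totals disagreed between caput and cauda: by totals the median of all entries moved by -0.39 on the log2 scale. The median of the 8 members was -0.30, beside 0.05 over all entries tested. Between the same segments 4 of 4 smooth muscle and 5 of 5 skeletal muscle entries were called lower in the caput and 9 of 10 epithelial entries higher, and their part in the member levels was not tested.

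Within the caput 1 library stood apart. CAPUT-R 1, the deepest library, had the lowest level of 7 of 7 abundant members, with a summed level of 1138 CPM against 2584 to 3145 CPM in the other 4. It also had the lowest endothelial sum of the 16 libraries, 5349 CPM. CAPUT-R 2 had the highest caput level of 3 members, miR-146a-5p, miR-150-5p and miR-223-3p, and the highest sums of all libraries for the endothelial list (41448 CPM) and the erythrocyte list (miR-144, miR-451 and miR-486, 703 CPM). The part of blood and vessels in these levels was not tested.

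The second question was whether leukocyte miRNAs differ between the seasons. In the cauda 0 of 8 members were called by edgeR, where 3.08% of 455 entries were called. At an unadjusted p under 0.05 there were 3 members, miR-142a-5p, miR-146a-5p and miR-150-5p, where 16.5% of entries had such a p, and DESeq2 called the same 3, where it called 11.6% of entries. All 8 fitted changes were below 0, beside 47% of entries, and their median was -0.92, beside 0.05 over all entries tested. In 3 of 8 members (37.5%) every R library was below every NR library, which held for 14.3% of entries.

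Among these 3 members, miR-146a-5p had a change of -1.47 (SE 0.35, adjusted p = 0.117), from a mean of 84.5 CPM in NR to 29.7 CPM in R. miR-150-5p had a change of -0.99 (SE 0.24, adjusted p = 0.117), from 20.9 to 10.2 CPM. miR-142a-5p had a change of -1.33 (SE 0.43, adjusted p = 0.211), from 404 to 162 CPM. None passed the edgeR threshold, and DESeq2 gave adjusted p of 0.00184, 0.00781 and 0.0261. Without CAUDA-NR 3, edgeR called miR-146a-5p (adjusted p = 0.0343) and miR-142a-5p (0.0496), where it called 24 of 504 entries, beside 14 of 455 in the main fit. Neither was called by edgeR with any other cauda library left out. Over all alternatives the adjusted p of both reached 0.515 by edgeR. With the entry marked as new added, the change of miR-150-5p was -0.22 (adjusted p = 0.912); CAUDA-NR 3 has 4 counts of that entry.

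The most abundant strand, miR-142a-3p, had a change of -1.04 (SE 0.56, adjusted p = 0.360) in the cauda, and CAUDA-R 1 at 4878 CPM lay inside the NR range. miR-155-5p had a change of -0.07 (SE 0.42, adjusted p = 0.954), with the highest of the 6 cauda libraries in R and the lowest also in R. Beside these, the endothelial list was lower in all 3 CAUDA-R libraries (18224 to 24971 CPM) than in the 3 CAUDA-NR libraries (27061 to 32551 CPM), and the germ cell and ciliated cell list had 579 to 1254 CPM in R and 324 to 674 CPM in NR. The smooth muscle sum was 28783 to 40039 CPM in R and 23147 to 30688 CPM in NR. Their part in the leukocyte changes was not tested.

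In the caput 0 of 7 members were called by edgeR, where 0% of 534 entries were called; 0 members had an unadjusted p under 0.05, beside 4.49% of entries, and DESeq2 called 0, where it called 2.81% of entries. All 7 fitted changes were below 0, beside 45.5% of entries, with a median of -0.40 beside 0.10. The changes ran from -0.80 for miR-142a-5p (SE 0.42, adjusted p = 0.778) to -0.15 for miR-223-3p (SE 0.45, adjusted p = 0.982). Without CAPUT-R 1 they ran from -0.62 for miR-142a-5p to 0.08 for miR-223-3p, and miR-150-5p was at -0.07. The summed level did not overlap between the seasons of the caput, but the highest R library (2955 CPM) and the lowest NR library (2986 CPM) lay next to each other.

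In the testis 0 of 6 members were called by edgeR, where 0% of 496 entries were called; 0 members had an unadjusted p under 0.05, beside 7.26% of entries, and DESeq2 called 0, where it called 4.84% of entries. Of the 6 changes 3 were below 0, beside 45.6% of entries, with a median of -0.16 beside 0.10. The changes ran from -0.67 for miR-155-5p (SE 0.44, adjusted p = 0.808) to 0.41 for miR-146b-5p (SE 0.62, adjusted p = 0.992). The TESTIS-NR libraries differed from each other in miR-142a-3p, which was 1179.6 CPM in TESTIS-NR 1 and 335 CPM in TESTIS-NR 3, with germ cell sums of 341 and 4704 CPM and skeletal muscle sums (miR-1a, miR-133 and miR-206) of 164 and 1052 CPM. The part of these in the leukocyte levels was not tested.

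**Figure D4:**
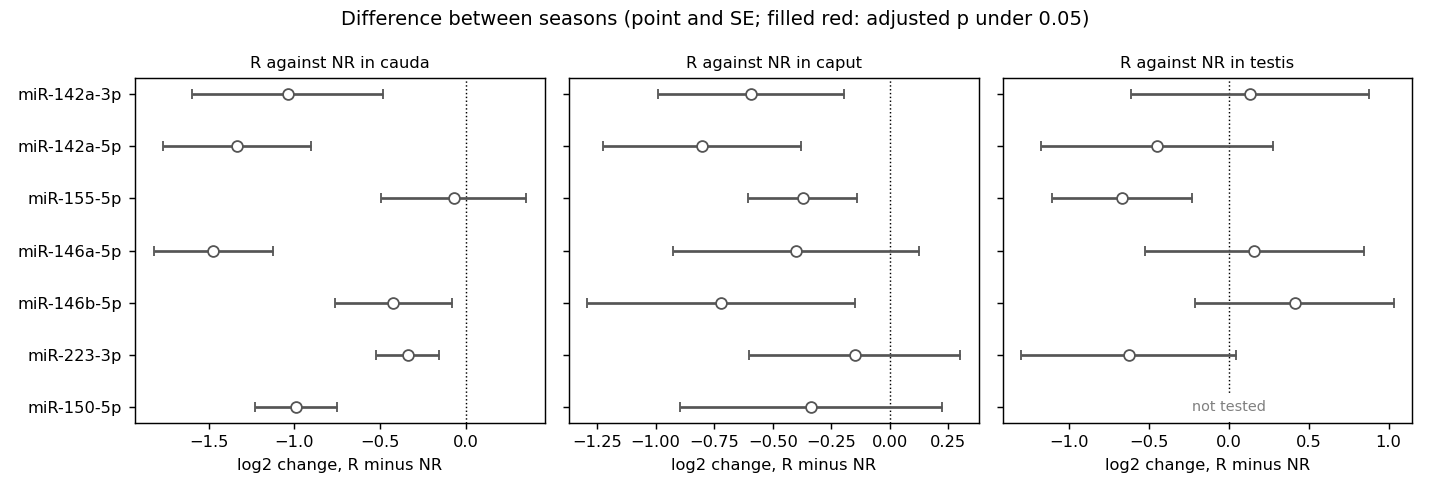
Fitted log2 changes between seasons (horizontal axis, R minus NR; a separate range in each panel) for the 7 abundant leukocyte miRNAs in each tissue; points are estimates and bars are 1 SE. No point passed an adjusted p under 0.05; the cauda changes lie between -1.47 and -0.07, and miR-150-5p was not tested in the testis.

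The difference of the season change between tissues was tested as an interaction. It was called for 0 of 8 members between caput and cauda, 0 of 7 between testis and caput and 0 of 8 between testis and cauda, where edgeR called 0% of all entries in each. At an unadjusted p under 0.05 there were 0 members in each by edgeR, beside 5.65%, 3.99% and 8.7% of entries, and DESeq2 called 0, where it called 2.26%, 1.77% and 2.95% of entries. The largest estimate with a mean above 10 CPM was 1.37 for miR-146a-5p between testis and cauda (SE 0.85, adjusted p = 0.648). These data therefore do not show that the season change of a member differed between tissues, and with 2 or 3 libraries a group the SEs are wide.

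Other miRNAs with known roles in immune cells gave a wider frame (miR-21a, miR-132, miR-147, miR-181a, miR-181b, miR-212, miR-342, miR-511 and miR-652; 16 entries found). No season change of theirs was called by edgeR in any tissue, with 2 of 14, 0 of 14 and 3 of 15 at an unadjusted p under 0.05 in testis, caput and cauda, beside 7.26%, 4.49% and 16.5% of all entries. In the cauda the summed level of this list was 149594 to 208928 CPM in R and 117005 to 149131 CPM in NR, ranges that nearly met. In the testis it was lower in R (50370 to 54984 CPM) than in NR (65727 and 76434 CPM). These sums were not tested, and most of the sum was miR-21a-5p. Of the 15 entries tested in the cauda, 7 changes were below 0 and 8 above, where 47% of all entries were below 0. Their median was 0.16, beside 0.05 over all entries tested. Between testis and cauda 6 of 15 were called higher in the testis and 1 lower, beside 18% and 18.1% of all entries. Between caput and cauda 6 of 15 were called higher in the caput and 1 lower, beside 12.7% and 8.55%. miR-21a-5p, abundant in macrophages and in many epithelia, was lower in the testis (47111 ± 13135 CPM, n = 5) than in the cauda (147902 ± 31614 CPM, n = 6), by -1.87 (SE 0.29, adjusted p = 0.000642). miR-181a-5p, known from lymphocyte development and also made by many other cells, was instead higher in the testis (9438 ± 2015 CPM against 2122 ± 508 CPM; 1.95, SE 0.19, adjusted p = 6.3e-05). The immune miRNAs outside the members thus did not share 1 direction between testis and cauda.

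The other called entries of that list were mostly of the miR-181 family. Between testis and cauda miR-181a-1-3p (2.90), miR-181b-5p (1.68), miR-181b-1-3p (1.00), miR-132-5p (1.94) and miR-342-3p (0.85) were the others called higher. Between caput and cauda those called higher were miR-181a-2-3p (3.03), miR-181a-5p (1.94), miR-181a-1-3p (1.68), miR-181b-1-3p (1.55), miR-181b-5p (1.38) and miR-342-3p (1.04), and miR-132-3p was called lower (-1.14). Between testis and caput miR-132-5p (2.76) and miR-181a-1-3p (1.21) were called higher in the testis, and miR-181a-2-3p (-2.70) and miR-21a-5p (-1.34) lower, 2 and 2 of 14 beside 16.5% and 18.2% of all entries.

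Over the 16 libraries, the named miRNAs whose levels ran most like each member were found by Pearson correlation of log2(CPM + 0.5) among 218 mouse-named miRNAs with a mean of at least 10 CPM. The libraries share tissue, season and 1 total per library, so these are descriptions without a test. For miR-142a-3p they were miR-186-5p (r = 0.94), miR-26b-5p (0.92) and miR-671-5p (0.91). The r for miR-186-5p was 0.87 within the testis (n = 5), 0.97 within the caput (n = 5) and 0.94 within the cauda (n = 6). For miR-155-5p they were miR-27b-3p (0.95), miR-23b-3p (0.93) and miR-96-5p (0.92). In the testis miR-96-5p stood at 0 to 7.15 CPM, with a median of 0.208 CPM near the floor. Values of r within tissues were not computed for miR-155-5p. For miR-150-5p they were miR-1247-5p (0.96), miR-361-5p (0.96) and miR-10b-3p (0.95). In the testis miR-150-5p had at most 2 counts in a library and miR-1247-5p stood at 0 to 1.69 CPM, both near the floor. By ranks (Spearman) the 3 values for miR-150-5p were 0.79, 0.74 and 0.93, and r within tissues was not computed for it either.

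For miR-146b-5p the most alike were miR-202-3p (0.97), a miRNA known from the gonads, miR-30a-3p (0.95) and miR-30a-5p (0.94). miR-202-3p stood at 39.6 to 67.1 CPM in the testis and at 0 to 1.29 CPM in the epididymis. Its r with miR-146b-5p was -0.03 within the testis (n = 5), 0.63 within the caput (n = 5) and 0.58 within the cauda (n = 6). The caput and cauda values rest on levels of miR-202-3p near 0. For miR-146a-5p they were miR-130a-3p (0.85), miR-126a-5p (0.81), an endothelial miRNA, and miR-199a-3p (0.79). The miR-146 pair shared none of its most alike miRNAs. For miR-223-3p they were miR-195a-5p (0.82), miR-374c-5p (0.78) and miR-374b-5p (0.78). The miR-374 entries had nearly equal levels (means of 171.17 and 171.18 CPM), so they do not count as separate matches. Whether the same reads were counted for both was not tested. Among the members themselves, miR-142a-3p correlated with its own 5p strand at 0.95 over 16 libraries and 0.93 over the 11 epididymal ones. miR-142a-3p and miR-155-5p correlated at 0.69 over all 16 and 0.24 over the 11.

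**Figure D5:**
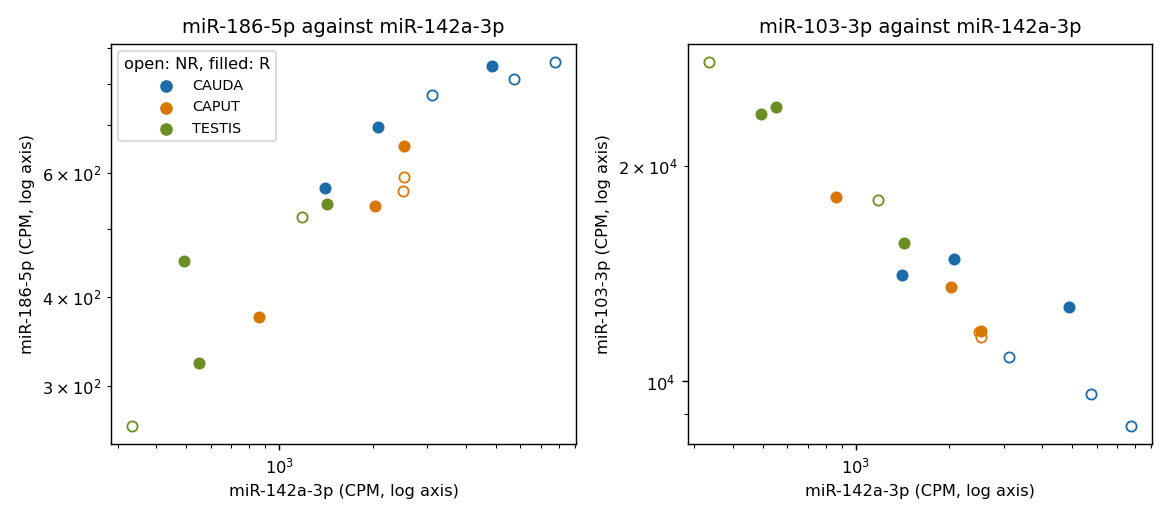
Levels of miR-186-5p and miR-103-3p (vertical axes) against miR-142a-3p (horizontal axes), all in CPM on log axes; each point is 1 of 16 libraries, colored by tissue, open for NR and filled for R. miR-186-5p runs with miR-142a-3p (r = 0.94) and miR-103-3p runs opposite to it (r = -0.96).

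miR-103-3p, singled out after its values were seen as the entry least like miR-142a-3p, ran against it with r = -0.96 over 16 libraries. Within tissues r was -0.99 in the testis (n = 5), -0.99 in the caput (n = 5) and -0.85 in the cauda (n = 6). It stood at 8666 to 14860 CPM in the cauda, 11536 to 18125 CPM in the caput and 15616 to 27969 CPM in the testis, and was highest in TESTIS-NR 3, where miR-142a-3p was lowest, and lowest in CAUDA-NR 2, where miR-142a-3p was highest. CPM of 1 total are not independent of each other, and what sets this opposite course was not tested.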

How the data were processed

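The authors deposited raw miRNA counts, 1 column per small RNA library, with no normalization. The tools featureCounts and bedtools are listed, without their roles, per the submitters' processing notes; their versions, the aligner and the assembly were not given in the sources used here. Groups came from the sample labels. Members and lists were chosen with earlier results of these data known. The 2 columns that equal their group mean (entries at 0 included in that check) were left out.

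Levels are CPM of the column total. Changes were fitted on the counts by the quasi-likelihood test of edgeR 4.0.16 (R 4.3.3) after filterByExpr and TMM scaling, with season as covariate between tissues, and Benjamini-Hochberg adjustment over all entries tested. An adjusted p under 0.05 was called; SE is the change divided by the root of F. Alternatives were DESeq2 1.42.0, library totals or DESeq2 size factors as scaling, no filter, a replicate block, 1 fit of all 16 libraries, the reproductive season alone, the averaged columns kept, each library left out in turn and, chosen after seeing the data, new entries of the same name added. The fits were tested on simulated data. Ratio intervals are exact (scipy 1.17.1), at 95%, and floors are 3 counts; no molecular identifiers are given, so both cover counting error only. Because replicates are named only as biological replicates, p-values measure the spread between these libraries.

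The members, the called other immune miRNAs and the 2 of these with the highest mean, and the 3 most alike miRNAs per abundant arm were named; miR-103-3p was added after its values were seen. Replicate numbers were checked for pairing through deviations from group means over 325 miRNAs. Libraries of 1 number correlated at 0.11 to 0.25 between caput and cauda over 5 pairs, which are not independent. In CAPUT-NR and TESTIS-NR n was 2, so the deviations of replicates 1 and 3 mirror each other. Caput with testis gave -0.02 to 0.41 and cauda with testis -0.10 to 0.08. Between the seasons of 1 tissue the values were 0.13 to 0.20 in the testis, 0.02 to 0.17 in the cauda and -0.17 to -0.12 in the caput. As values between seasons reached a similar size, this check does not settle whether caput and cauda were paired. The main fits took libraries as unpaired, and the replicate block is an alternative. No mature sequences were used here.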

Additional observations from a re-analysis of the deposited data

How the results depend on the processing

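Of 717 refitted changes of members, 676 kept direction and side of the threshold. Of the 12 called changes, 10 kept their call under every alternative run; miR-223-3p (testis against cauda) and miR-146b-5p (caput against cauda) did not, as given above. miR-146a-5p, not called in the main fit, was called lower in the testis against the cauda by DESeq2 (adjusted p = 0.0301), with all 16 libraries in 1 fit (0.0234) and without TESTIS-R 2 (0.0236), and against the caput with the averaged columns kept (0.0273).

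The number of members called moved as follows. In the cauda between seasons it was 3 with DESeq2 and 0 to 2 with 1 library left out. Between caput and cauda it was 0 with library-total scaling, with the replicate block and in the reproductive season only, and 0 to 1 with 1 library left out. Between testis and caput it was 5 in each fit with 1 library left out, and between testis and cauda 5 to 7. With the replicate block 5 members were called against the caput and 5 against the cauda; the seasons had 0, and the block changed the calls of miR-223-3p and miR-146b-5p only. An arm left with 1 library was assumed to vary like the others.

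Only changes that were not called turned direction: in the testis between seasons miR-146a-5p (-0.14 with the replicate block, -0.15 with all 16 libraries in 1 fit) and miR-142a-3p (-0.19 with all 16); between caput and cauda miR-150-5p (-0.15 with library totals) and miR-146a-5p (0.26 in the reproductive season). With 1 library left out the ranges were, between seasons of the testis, -0.55 to 1.09 for miR-142a-3p, -1.01 to 0.19 for miR-142a-5p, -0.32 to 0.83 for miR-146a-5p and -0.076 to 0.65 for miR-146b-5p; of the caput, -1.30 to 0.075 for miR-146b-5p and -0.37 to 0.076 for miR-223-3p; of the cauda, -0.46 to 0.24 for miR-155-5p and -1.24 to 0.039 for miR-223-5p; and between caput and cauda -0.046 to 0.34 for miR-150-5p. The causes were not tested.

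Library totals moved the median of all entries by -0.39 between caput and cauda, 0.60 between testis and caput and 0.21 between testis and cauda; they moved the share called higher from 59.8% to 32.8% and from 47.7% to 65.4% in the first and second of these. Over all entries, the seasons of the cauda gave 14 calls, 53 with DESeq2, 1 without the filter and 0 with the block; the testis 0, and 24 with DESeq2; the caput 0, and 15 with DESeq2. Caput against cauda gave 79 higher and 53 lower calls, and 76 in all with the block, testis against cauda 257 and 161. Depth limits miR-146a-3p, miR-146b-3p and miR-223-5p, and miR-150-5p in the testis.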
